A study of Saccharomyces cerevisiae with 58 samples.

Results

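The ribosome biogenesis factors described here are budding yeast proteins that build ribosomes without staying part of them. They were taken by name, as every gene whose symbol is NOP, UTP, RRP, NOG, NSA or ENP followed by a number, which gave 59 of the 5449 genes measured. Each is represented by 1 probe set, a group of short probes on an Affymetrix array. By known role, 30 of the 59 act on the small ribosomal subunit, 18 on the large subunit, 4 belong to small nucleolar ribonucleoproteins (snoRNPs) and 7 are subunits or partners of the RNA exosome. All 59 lay, on average, above the background level of 9.06 (log2), and 1 of their 3422 values fell below it, that of RRP36 in wild-type culture 1 at 30 min (8.75).

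The samples came from 2 cultures of a B-type cyclin mutant (15 arrays each) and 2 cultures of its wild type (14 arrays each). The mutant is labelled as a MATa strain of the BF264-15DU background whose mitotic cyclin genes carry clb1::URA3, clb2::LEU2 and clb3::TRP1 as well as clb4::HIS2. Its S-phase cyclin genes carry clb5::ARG4 and clb6::APE1, and it has GAL1-CLB1:LEU2, a copy of CLB1 under the galactose-driven GAL1 promoter, which dextrose represses. The wild type is labelled as the same MATa background with bar1, an allele that the mutant label does not list. Small early G1 cells of both strains were obtained by elutriation, a separation by size in a centrifuge, and were followed in dextrose medium with 1 M sorbitol at 30 °C. Arrays were taken every 16 min, from 30 to 254 min in mutant culture 2 and wild-type culture 1 and from 38 to 262 min in mutant culture 1 and wild-type culture 2. The culture was the replicate (n = 2 per strain), so p-values measure the spread between cultures. The exception is the fit of waves over time, whose p-values measure the scatter of single arrays.

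A ribosome is made in the nucleolus, where RNA polymerase I transcribes a long precursor of the ribosomal RNAs. U3 and the other box C/D snoRNPs guide its methylation and early cuts, and box H/ACA snoRNPs guide the conversion of uridine to pseudouridine. The UTP proteins assemble on the growing precursor as the small-subunit processome, the NOG, NSA and many NOP proteins remodel the large-subunit particle, and the exosome trims or destroys spacer RNA. In yeast the genes for these factors are known as a regulon that is induced together when cells gain a rich carbon source and is repressed together in stress.

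The deposited values were probe set intensities, and all levels below are log2 intensities. The median over all genes lay between 10.79 and 10.92 on every array, so the arrays share a scale. CLB2, CLB3 and CLB4 lay below background on 30 of 30 mutant arrays, while the probe sets of CLB1, CLB5 and CLB6 did so on 0 of 30. The CLB1 probe set can also read GAL1-CLB1, and a probe set outside a disrupted part does not check the disruption. Of the markers of other cell types, 2 of 4 alpha-specific genes lay above background on average (SAG1 and MF(ALPHA)2), STE3 was below it on 58 of 58 arrays, and 2 of 8 meiotic genes lay above it on average. For the labelled a cells, 5 of 6 a-specific genes were above background on average, and from 158 min on 6 of 6 were lower in the mutant. The part of these marker differences in the results below was not tested.

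The average over the 59 genes started low, climbed within the first hour in every culture, and then declined, more in the mutant. On the first array the mean was 11.86 in mutant culture 1 and 11.08 in mutant culture 2, against 10.76 in wild-type culture 1 and 10.91 in wild-type culture 2. The 2 mutant cultures thus differed from each other by more than the 2 wild-type cultures did, and mutant culture 1, first sampled at 38 min, stood above the other 3. Most genes reached their highest value between 54 and 78 min, namely 59 and 58 of 59 genes in mutant cultures 1 and 2, and 56 and 55 in wild-type cultures 1 and 2. From the first array to the highest, the median climb was 0.67 and 1.47 in mutant cultures 1 and 2, against 1.78 and 1.51 in wild-type cultures 1 and 2. From the highest to the last array the median change was -1.03 and -0.94 in the mutant, against -0.50 and -0.46 in the wild type. The first array was the lowest of the whole course for 13 and 54 genes in the mutant cultures and for 59 and 59 in the wild-type cultures. In the wild type no gene went back to its starting level. Less RNA of a gene per cell and fewer cells that express it cannot be told apart in these samples.

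**Figure D1:**
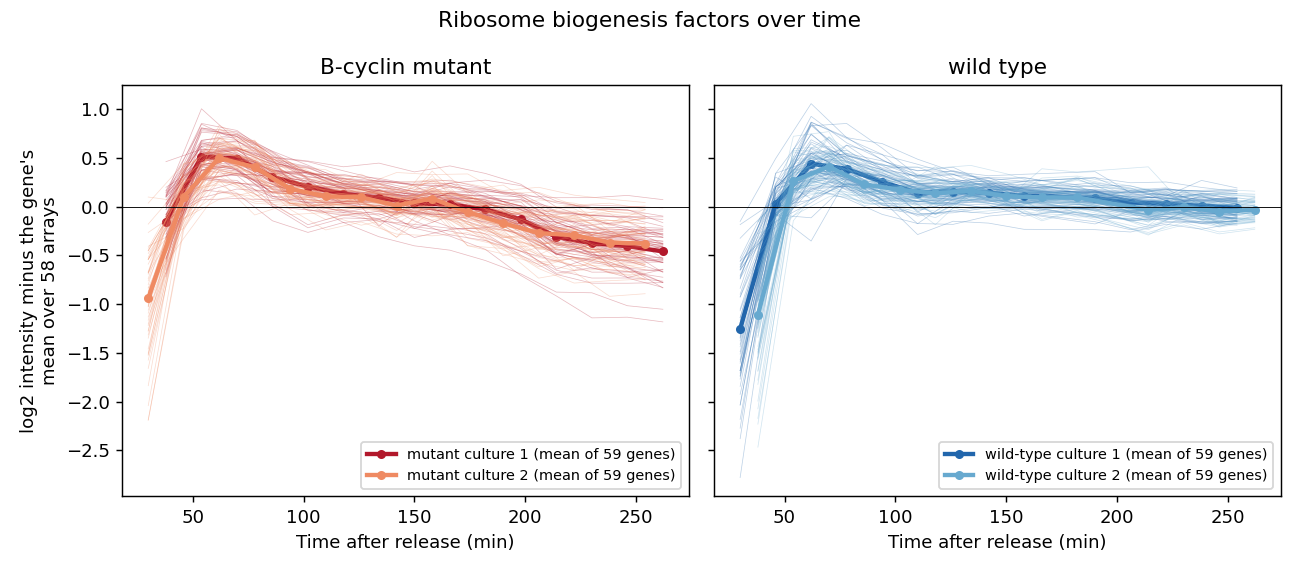
Log2 intensity of the 59 genes minus the mean of each gene over 58 arrays (vertical axis) against time after release in minutes (horizontal axis), for the mutant cultures on the left and the wild-type cultures on the right; thin lines are genes and thick lines the mean of a culture. All 4 cultures peak near 62 min, and the mutant lines end below the wild-type lines.

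For the tests, each culture was averaged over 3 windows: up to 54 min (first), 62 to 150 min (middle) and 158 min on (last), with 2, 6 and 6 arrays per culture. The mutant arrays at 174 and 198 min, times without a wild-type array on the same grid here, were left out. Averaged over the 59 genes, the first window stood at 11.90 ± 0.42 in the mutant, against 11.50 ± 0.13 in the wild type (SD, n = 2 cultures each). The middle window stood at 12.23 ± 0.01 in the mutant, against 12.25 ± 0.04 in the wild type, and the last window at 11.77 ± 0.02 in the mutant, against 12.05 ± 0.02 in the wild type. The strains were thus within the spread of their cultures in the first and middle windows, and apart by more than that spread in the last.

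The climb from the first to the middle window, called recovery here, was positive in the wild type for 59 of 59 genes. It passed the threshold (limma, Benjamini-Hochberg adjusted p under 0.05 over all 5449 genes) for 53 of them, with a median of 0.77, against 26.2% of all genes called higher and a median of 0.01 over all genes. In the mutant 7 of 59 genes passed, with a median of 0.34, against 17.7% of all genes. These 7 were NOP13 (0.99), NOP7 (0.93), UTP23 (0.88), RRP1 (0.58), RRP17 (0.53), NOP6 (0.46) and RRP40 (0.41). With mutant culture 1 left out the mutant median was 0.64, with 58 of 59 positive. Without mutant culture 2 it was 0.046, with 24 of 59 negative and the 7 calls lost. Leaving out either wild-type culture kept the mutant median at 0.34, while the 7 calls were lost. In the wild type, leaving out wild-type culture 1 or 2 gave 0 called genes (limma; 14 and 42 at an unadjusted p under 0.05), with medians of 0.56 and 0.85 and 59 of 59 still positive. Over all genes these 2 fits called 488 and 426 genes in either direction. A fit with a culture left out has 1 culture in a strain, which is assumed to vary like the other strain, so its counts say little about stability.

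The size of recovery also depended on where the first window ended. With that window ended at 70 min the mutant median was 0.079, with 21 of 59 negative, and 2 genes passed: NOP13 was higher (0.55) and UTP22 lower (-0.21). The wild-type median was then 0.37, with 59 of 59 positive and 35 called.

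Recovery was largest for NOP13, an RNA-binding protein found in pre-ribosomes. In the first window NOP13 stood at 12.15 and 10.98 in mutant cultures 1 and 2, against 10.66 and 10.89 in wild-type cultures 1 and 2, and in the middle window at 12.67 and 12.43 in the mutant, against 12.59 and 12.42 in the wild type. All 4 cultures reached a similar level, and mutant culture 1 had the shortest way to go. The recovery of NOP13 was 0.99 ± 0.23 (SE, adjusted p = 0.019), or 1.99-fold, in the mutant and 1.73 ± 0.23 (adjusted p = 0.0018), or 3.32-fold, in the wild type. Averaged over both strains NOP13 recovered by 1.36, followed by UTP23, a processome protein (1.16), NOP7, a scaffold of early large-subunit particles (1.13), RRP12, a factor in the export of both subunits (0.99), and RRP5, which acts in early cuts for both subunits (0.94).

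At the other end were UTP22 and RRP7, which form the UtpC subcomplex of the processome. UTP22 stood in the first window at 12.95 and 12.66 in the mutant, against 12.21 and 12.49 in the wild type, and in the middle window at 12.72 and 12.68 in the mutant, against 12.40 and 12.61 in the wild type. Both mutant cultures were thus already above the wild-type cultures at the start, and the UTP22 recovery was -0.10 ± 0.08 in the mutant, against 0.16 ± 0.08 in the wild type, neither called (adjusted p = 0.32 and 0.13). RRP7 recovered by -0.15 ± 0.12 in the mutant (adjusted p = 0.34) and by 0.34 ± 0.12 in the wild type (adjusted p = 0.050, called by a narrow margin). These were the only 2 of the 59 genes with a negative recovery in the mutant. UTP15 of the UtpA subcomplex (0.21), and RRP43 (0.22) and RRP46 (0.22), both subunits of the exosome ring, were next in the mean of both strains. Wild-type recovery was not called for UTP22, UTP15, RRP36, RRP43, RRP6 and RRP8.

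By role, the median wild-type recovery was 0.79 for small-subunit factors (27 of 30 called), 0.81 for large-subunit factors (17 of 18), 0.60 for snoRNP proteins (4 of 4) and 0.37 for exosome proteins (5 of 7). In the mutant the medians were 0.36 (2 of 30), 0.35 (4 of 18), 0.29 (0 of 4) and 0.13 (1 of 7) in the same order of roles. Of all genes, 26.2% were called higher in wild-type recovery and 17.7% in mutant recovery. The mutant shares of all roles but the large subunit were below the latter. For the 4 snoRNP genes in the mutant the smallest adjusted p was 0.069, and 2 of them had an unadjusted p under 0.05. The exosome genes had the smallest median in both strains.

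Recovery was smaller in the mutant for 59 of 59 genes, with a median difference of -0.41 (46.4% of all genes were negative in this difference). The difference itself passed the limma threshold for 0 of 59 genes, against 0.587% of all genes, with 6 at an unadjusted p under 0.05 and a smallest adjusted p of 0.23. Its median was -0.11 with mutant culture 1 left out and -0.73 with mutant culture 2 left out, so its size rests on mutant culture 1.

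**Figure D2:**
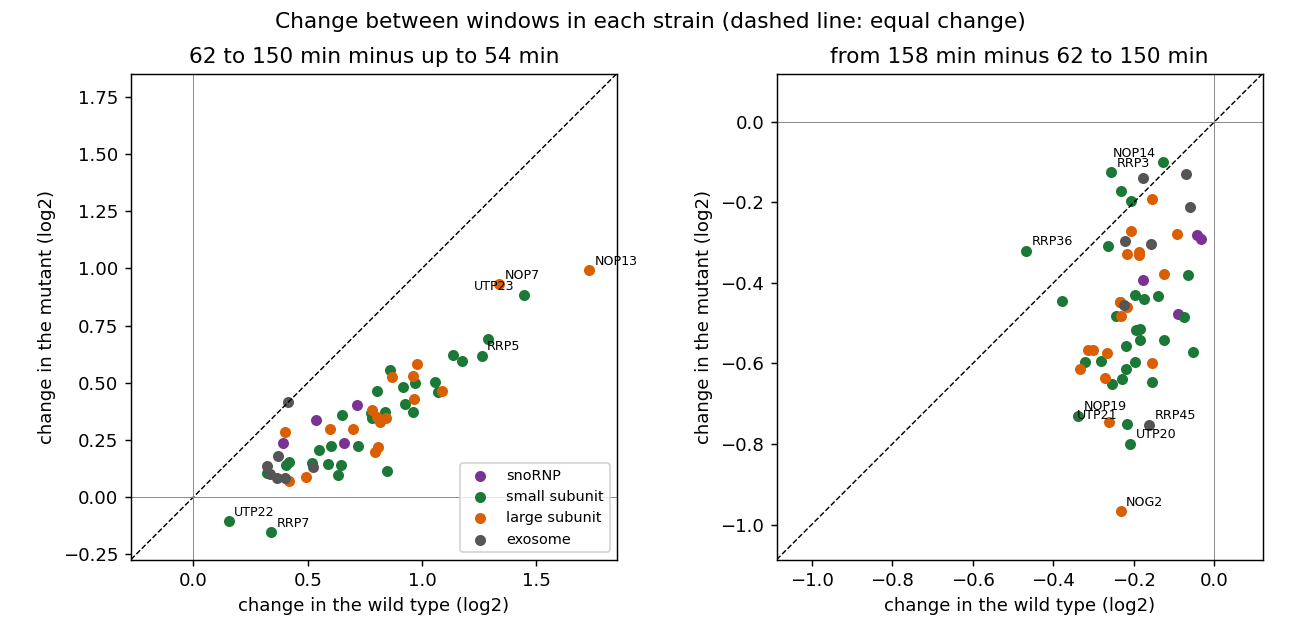
Change of each of the 59 genes in the mutant (vertical axis, log2) against its change in the wild type (horizontal axis, log2), from the first to the middle window (left) and from the middle to the last (right); the dashed line marks equal change. Points lie under the dashed line on the left for all 59 genes and on the right for 53 of them.

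In the first window 57 of 59 genes were higher in the mutant, by a median of 0.40, against a median of -0.01 over all genes. None of the 59 passed the threshold (limma; 3 at an unadjusted p under 0.05, with a smallest adjusted p of 0.71), against 0.11% of all genes. The 2 cultures of a strain were sampled on different grids, so their spread here includes that offset in time. With the sampling grid as a block, 0 of 59 passed (limma; 26 at an unadjusted p under 0.05, with a smallest adjusted p of 0.16). That fit called 13 of all genes in either direction. UTP4, a UtpA protein that binds the precursor early, had the largest difference. It stood at 12.31 and 11.62 in mutant cultures 1 and 2, against 10.70 and 11.42 in wild-type cultures 1 and 2. The cultures did not overlap, and the UTP4 difference of 0.90 ± 0.34 was not called. NOP13 (0.79) and RRP5 (0.73) followed, and the lowest were NOP19 (-0.06), RRP40 (-0.01) and RRP15 (0.05). Without mutant culture 1 the median was 0.11 and 42 of 59 genes were higher, and without mutant culture 2 it was 0.68.

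In the middle window the strains lay close together. The median difference was -0.01, the range was -0.32 (NOP19) to 0.20 (UTP22), and 0 of 59 genes passed (limma; 1 at an unadjusted p under 0.05, with a smallest adjusted p of 0.27), against 3.06% of all genes. RRP36 (-0.30) and RRP15 (-0.25) were next to NOP19, and UTP4 (0.17) and RRP42 (0.16) next to UTP22. Without mutant culture 2 the range was -0.49 to 0.26.

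In the last window 17 of 59 genes fell in the mutant relative to the wild type and 0 rose, against 13.3% of all genes called lower. The median difference was -0.27 and 55 of 59 differences were negative, against a median of 0.02 over all genes. The 17 genes, from the largest fall, were NOG2, NOP19, RRP45, UTP20, RRP15, NOG1, NOP4, NOP15, UTP21, RRP9, RRP7, UTP23, RRP17, NSA2, NOP56, UTP6 and UTP10. With any single culture left out the median stayed between -0.25 and -0.28, in fits that have 1 culture in a strain. Most of the 17 calls were lost without wild-type culture 1 or 2. With the last window ended at 222 min, 7 of the 17 were called and the median was -0.19, while 1324 of all genes were called in either direction.

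Among the snoRNP genes, 1 of 4 fell, against 13.3% of all genes called lower. NOP56, a core protein of box C/D snoRNPs, stood at 12.93 and 13.06 in mutant cultures 1 and 2, against 13.38 and 13.33 in wild-type cultures 1 and 2. Both mutant cultures were below both wild-type cultures, and NOP56 fell by 0.36 ± 0.09 on the log2 scale (adjusted p = 0.032), a 1.28-fold change. NOP1, the methyltransferase fibrillarin, stood at 13.81 and 14.00 in the mutant, against 14.21 and 14.19 in the wild type, and missed the threshold (-0.30 ± 0.10, adjusted p = 0.066). NOP58, the partner of NOP56, gave -0.27 ± 0.12 (adjusted p = 0.13), and NOP10 of the box H/ACA particles gave -0.32 ± 0.11 (adjusted p = 0.070).

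Among small-subunit factors, 8 of 30 fell, against 13.3% of all genes called lower, with a median of -0.24. NOP19, a processome protein, stood at 9.41 and 9.80 in the mutant, against 10.39 and 10.25 in the wild type. The NOP19 difference was -0.72 ± 0.15 (adjusted p = 0.015), 1.64-fold lower, and its low signal, near the background level of 9.06, can understate it. UTP20, a very large processome protein, stood at 12.38 and 12.33 in the mutant, against 12.85 and 12.92 in the wild type, a difference of -0.53 ± 0.09 (adjusted p = 0.0077). In both genes every mutant culture lay below every wild-type culture.

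Called and uncalled genes stood side by side within subcomplexes. In UtpB, UTP21 (-0.41) and UTP6 (-0.34) fell, while UTP13 (-0.29, adjusted p = 0.081) and UTP18 (-0.24, adjusted p = 0.11) were not called. In UtpA, UTP10 fell (-0.30, adjusted p = 0.045), while UTP5 (-0.48), UTP4 (-0.32), UTP9 (-0.22), UTP15 (-0.22) and UTP8 (-0.10) were not called. In UtpC, RRP7 fell (-0.41), and UTP22 (-0.20, adjusted p = 0.19) was not called. RRP9, a protein of the U3 snoRNP, fell by 0.41 and UTP23 by 0.38. RRP5 gave -0.33 ± 0.14 (adjusted p = 0.11), and ENP1, which accompanies the small subunit to the cytoplasm, gave -0.21 ± 0.08 (adjusted p = 0.11).

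A few small-subunit factors were level or leaned the other way. ENP2 stood at 12.42 and 12.45 in the mutant, against 12.46 and 12.47 in the wild type, a difference of -0.03 ± 0.08. UTP7 stood at 11.11 and 11.08 in the mutant, against 10.96 and 10.91 in the wild type. The mutant cultures were higher here, and the UTP7 difference of 0.16 ± 0.09 was not called (adjusted p = 0.20). RRP3, a helicase of small-subunit RNA maturation, gave 0.11 ± 0.09 (adjusted p = 0.41).

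**Figure D3:**
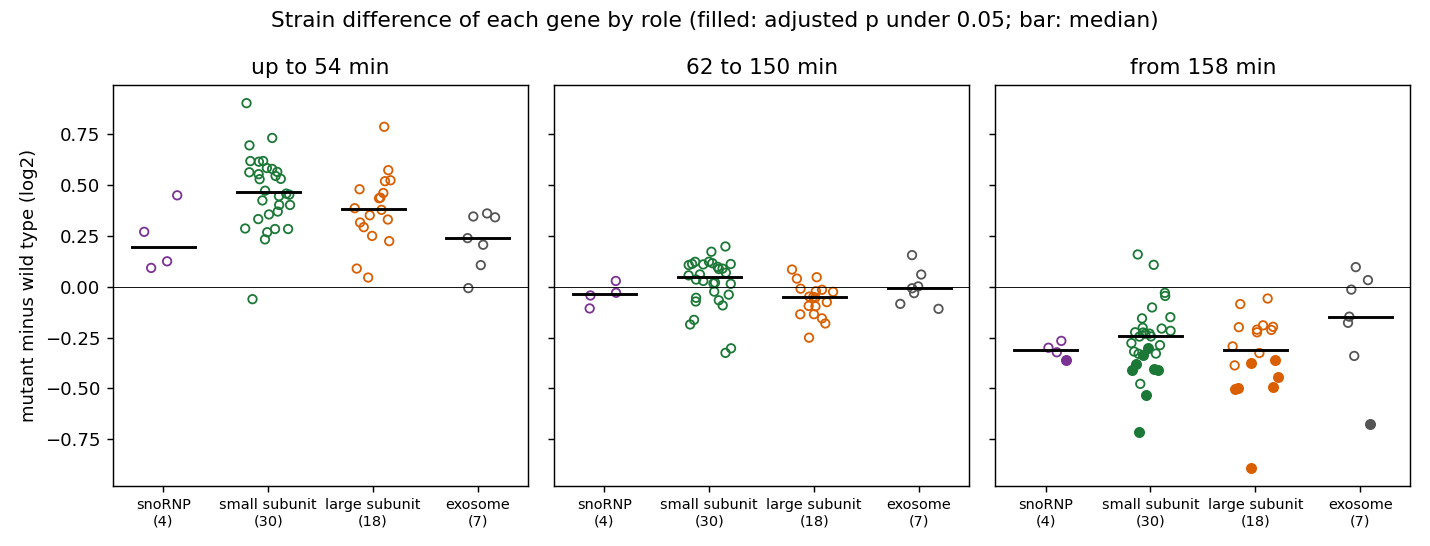
Mutant minus wild type (vertical axis, log2) of each gene, by role (horizontal axis), in the first, middle and last windows; each point is a gene, filled where the adjusted p was under 0.05, and the bar is the median of the role. Medians are above 0 in the first window, near 0 in the middle window and below 0 in the last window for each of the 4 roles, and filled points appear only in the last window.

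Among large-subunit factors, 7 of 18 fell, against 13.3% of all genes called lower, and 18 of 18 differences were negative, with a median of -0.31. NOG2, a GTPase that acts as a placeholder on large-subunit particles before their export, had the largest fall of all 59. It stood at 11.68 and 11.98 in mutant cultures 1 and 2, against 12.76 and 12.67 in wild-type cultures 1 and 2. Both mutant cultures were below both wild-type cultures, and NOG2 fell by 0.89 ± 0.12 (adjusted p = 0.0047), or 1.85-fold. NOG2 was also 1 of 2 genes called over the whole course.

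NOG1, a related GTPase, fell by 0.50 ± 0.12 (adjusted p = 0.025), with 12.25 and 12.54 in the mutant, against 12.86 and 12.93 in the wild type. RRP15 (-0.51), NOP4 (-0.49), NOP15 (-0.44), RRP17 (-0.37) and NSA2 (-0.36) completed the called group. They are, in that order, a factor of early large-subunit particles, an RNA-binding protein, another RNA-binding protein, an exonuclease and a factor needed to process an internal spacer. NSA1 stood at 11.98 and 11.84 in the mutant, against 12.03 and 11.91 in the wild type. The cultures overlapped, and the NSA1 difference was -0.06 ± 0.10 (adjusted p = 0.68).

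Among exosome genes, 1 of 7 fell, a share near the 13.3% of all genes called lower, with a median of -0.15. RRP45, a ring subunit, stood at 10.86 and 10.96 in mutant cultures 1 and 2, against 11.64 and 11.54 in wild-type cultures 1 and 2, a difference of -0.67 ± 0.09 (adjusted p = 0.0046). Its mutant cultures lay below its wild-type cultures by a wide margin beside the spread within each strain. RRP6, the nuclear exonuclease of the complex, gave -0.34 ± 0.11 (adjusted p = 0.059). RRP42, another ring subunit, stood at 12.45 and 12.26 in the mutant, against 12.18 and 12.34 in the wild type, and its cultures overlapped (0.10 ± 0.11). RRP46 (-0.01) and RRP43 (-0.15, adjusted p = 0.27), also of the ring, were not called, so these subunits of a single ring ranged from -0.67 to 0.10. The cap subunits RRP40 (0.03) and RRP4 (-0.18) were not called.

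**Figure D4:**
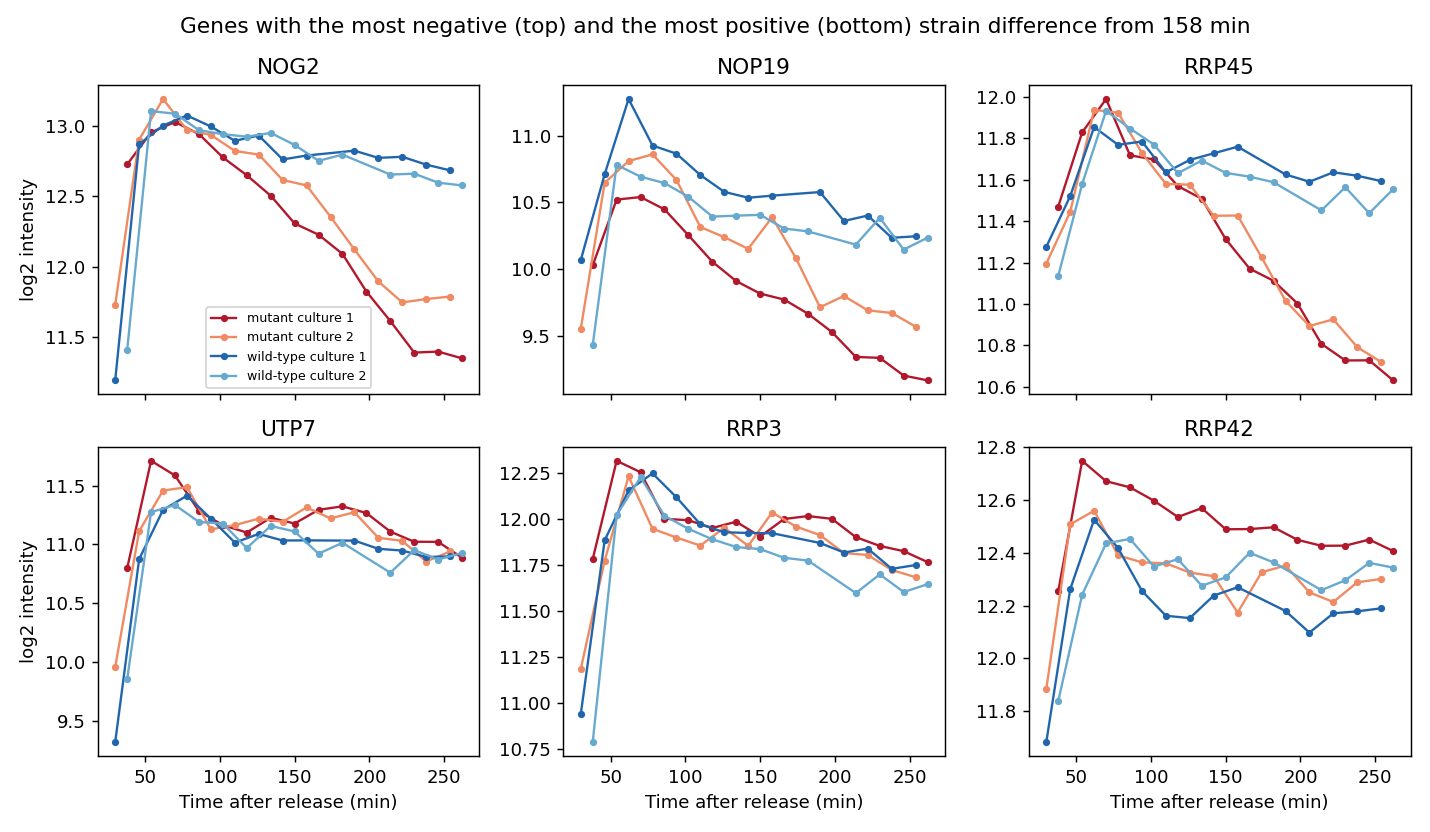
Log2 intensity (vertical axis) against time after release in minutes (horizontal axis) in each culture for the 3 genes with the most negative strain difference from 158 min (NOG2, NOP19 and RRP45, top) and the 3 with the most positive (UTP7, RRP3 and RRP42, bottom). In the last window NOG2 averages 11.68 and 11.98 in the mutant cultures, against 12.76 and 12.67 in the wild-type cultures, while the lines of RRP42 overlap.

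Over the whole course 2 of 59 genes were lower in the mutant and 0 were higher, against 5.07% of all genes called lower. NOG2 averaged 12.28 and 12.42 in the mutant, against 12.74 and 12.74 in the wild type (-0.39 ± 0.08, adjusted p = 0.032). RRP45 averaged 11.31 and 11.33 in the mutant, against 11.65 and 11.60 in the wild type (-0.31 ± 0.08, adjusted p = 0.048). Neither gene's cultures overlapped. Neither was called without wild-type culture 1 or without wild-type culture 2, fits that have 1 wild-type culture. With the sampling grid as a block neither was called (adjusted p = 0.058 for NOG2 and 0.075 for RRP45), and NOP19 was (-0.45, adjusted p = 0.038). Over all alternatives the adjusted p ranged from 0.0028 to 0.16 for NOG2 and from 0.019 to 0.34 for RRP45. The median of the 59 was -0.06, a share of 2 called that lies under the share of all genes.

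The later change, from the middle to the last window, was negative for 59 of 59 genes in both strains. In the mutant 24 of 59 genes passed, with a median of -0.46, against 15.2% of all genes called lower and a median of -0.03 over all genes. In the wild type the median was -0.21 and 0 of 59 passed (limma; 4 at an unadjusted p under 0.05, with a smallest adjusted p of 0.28), against 0.789% of all genes. By role the mutant falls were called in 13 of 30 small-subunit factors, 8 of 18 large-subunit factors, 1 of 4 snoRNP genes and 2 of 7 exosome genes. Leaving out mutant culture 1 or 2 gave a mutant median of -0.44 or -0.48. Without wild-type culture 1 or 2 it stayed at -0.46, while most of the 24 calls were lost. The mutant count was 15 with each array centred on its median, 14 with no culture block and 7 with the last window ended at 222 min.

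NOG2 fell most in the mutant, by 0.97 ± 0.20 (adjusted p = 0.015), or 1.96-fold, with 12.70 and 12.89 in the middle window of mutant cultures 1 and 2. In the wild type its later change was -0.23 ± 0.20. UTP20 fell by 0.80 in the mutant and RRP45 by 0.75, against later changes of -0.21 and -0.16 in the wild type that were not called. UTP22, which had hardly moved early, fell by 0.60 ± 0.08 in the mutant (adjusted p = 0.0049).

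The smallest later changes in the mutant were those of NOP14 (-0.10), RRP3 (-0.12) and RRP42 (-0.13). In the wild type the most negative were RRP36 (-0.47), NOP6 (-0.38) and NOP19 (-0.34), and the closest to 0 were NOP1 (-0.03), NOP58 (-0.04) and RRP9 (-0.05). NOP56, the remaining core protein of box C/D snoRNPs in the set, had a wild-type later change of -0.09. The later change differed between strains by a median of -0.26 and was more negative in the mutant for 53 of 59 genes. The difference was called for 0 of 59 (limma; 6 at an unadjusted p under 0.05, with a smallest adjusted p of 0.11, that of RRP45), against 2.15% of all genes, so a fall called in the mutant is not shown to be larger than that in the wild type for any single gene.

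The strain difference changed from the first to the last window in 17 of 59 genes, all toward lower values in the mutant, against 10.6% of all genes. This contrast was chosen after the data were seen. The median change was -0.66. The largest were NOG2 (-1.33), UTP4 (-1.22) and UTP20 (-1.15). With mutant culture 1 or 2 left out the median change was -0.35 or -0.95. Without wild-type culture 1 or 2 it was -0.59 or -0.77, and the 17 calls were lost.

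None of the 59 genes was called periodic, in either strain. A cosine wave was fitted from 62 min on with the period at which each strain's G1/S genes cycled (137 min in the mutant, 93 min in the wild type), and a call needed an adjusted p under 0.05 and a peak-to-trough of at least 1.5-fold. This was met by 0 of 59 genes in the mutant, against 5.63% of all genes, and by 0 of 59 in the wild type, against 5.08%. At the adjusted p alone, 24 of the 59 passed in the mutant, against 54.6% of all genes there, and 11 passed in the wild type, against 31.1% of all genes. These p-values treat the arrays of a culture as independent and can be too small. The largest fitted waves were 1.21-fold for RRP43 in the mutant and 1.17-fold for NOP9, a small-subunit RNA-binding factor, in the wild type. Of 26 G1/S genes, 22 were called in each strain by the same rule. With the earliest arrays included, 7 of the 59 were called in the wild type. Those arrays hold the early climb, and no share over all genes is at hand for that fit, so the count cannot be read as a cycle.

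The size of the swing over time from 62 min on, as the SD of each culture after removal of a linear trend, differed between strains in 0 of 59 genes (limma; 4 at an unadjusted p under 0.05, with a smallest adjusted p of 0.16), against 0.184% of all genes. The median difference was 0.13 on the log2 scale of that SD. Without removal of the trend the median was 1.04 and 29 of the 59 had a larger swing in the mutant, against 21.5% of all genes and a median of 0.42 over them. Over all arrays, the early ones included, the direction turned: the median was -0.50, 57 of 59 differences were negative, and 0 were called (limma; 1 at an unadjusted p under 0.05).

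The genes followed each other closely over time. Over the 58 arrays the correlation of each gene with the mean of the 59 had a median of 0.92, with 38 of 59 over 0.9. These correlations describe arrays that share cultures and a common early climb. UTP20 (0.98), UTP14, a helicase cofactor of the processome (0.98), NSA2 (0.97) and NOP4 (0.97) followed the mean most closely. RRP42 (0.68), RRP7 (0.68), UTP22 (0.68), RRP45 (0.73) and NOP19 (0.73) followed it least. From 62 min on, without the climb (50 arrays), the median was 0.89. RRP45 then correlated at 0.92 and NOP19 at 0.87, while RRP42 dropped to 0.31, the lowest of all.

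Outside the named families, the genes whose profile was most like the mean were BMS1, a GTPase of the processome (0.99), KRI1, a small-subunit factor (0.98), ECM1, a large-subunit export factor (0.98), MAK21, a large-subunit factor (0.98), and RRS1, a large-subunit assembly factor (0.98). Of all other genes, 106 correlated with the mean at or above the median of the 59, and 52 of these were in the lists of other biogenesis factors. The lists are incomplete, since ECM1 and RRS1 are not in them, so 52 is a minimum. In the R64 annotation of RefSeq, 0 pairs of the 59 are direct neighbours, and 7 lie beside another biogenesis factor. Of these pairs NOP56 and PWP1 correlated at 0.95 and NOG2 and ESF2 at 0.47, the highest and the lowest.

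The rest of the pathway moved much as the 59 did. Of 100 other biogenesis factors, 91 recovered in the wild type (median 0.81), against 26.2% of all genes called higher. Mutant recovery was called for 13 (median 0.39), a share below the 17.7% of all genes. Relative to the wild type, 32 fell in the mutant in the last window (median -0.23), against 13.3% of all genes called lower. The large-subunit factors LOC1, which also binds localised mRNA, and NOC3, which also acts in DNA replication, had the largest falls. LOC1 averaged 11.08 in the mutant, against 12.20 in the wild type (-1.11 ± 0.11, adjusted p = 0.0017), and NOC3 10.55 in the mutant, against 11.62 in the wild type (-1.06 ± 0.10, adjusted p = 0.0012). Both falls exceeded that of NOG2.

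Among other small-subunit factors SOF1 (-0.66) and BUD22 (-0.65) led, with 11 of 40 called, against 13.3% of all genes called lower. Of 9 other snoRNP and exosome genes 2 were called, with CBF5, the pseudouridine synthase (-0.62), ahead of its partner GAR1 (-0.41, adjusted p = 0.087). CIC1, also known as NSA3, fell by 0.41 (adjusted p = 0.032).

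RNA polymerase I genes were called lower in 4 of 16, against 13.3% of all genes, with a median of -0.17. HMO1, a DNA-binding protein of the rDNA and of ribosomal protein promoters, fell by 0.94 ± 0.08 (adjusted p = 0.0011), and RRN5, of the upstream activating factor, fell by 0.60. Of 127 ribosomal protein genes 8 fell, a share below the 13.3% of all genes called lower, with a median of -0.07. They were led by RPL22B (-1.15 ± 0.11, limma, adjusted p = 0.0015) and RPS14B (-0.44). Many ribosomal protein genes have a near-identical copy, and their probe sets can read both, so single values of this list are uncertain. During wild-type recovery 31 of the 127 ribosomal protein genes were called higher, a share below the 26.2% of all genes. Their list had a median of 0.13, against 0.77 for the 59 biogenesis genes.

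**Figure D5:**
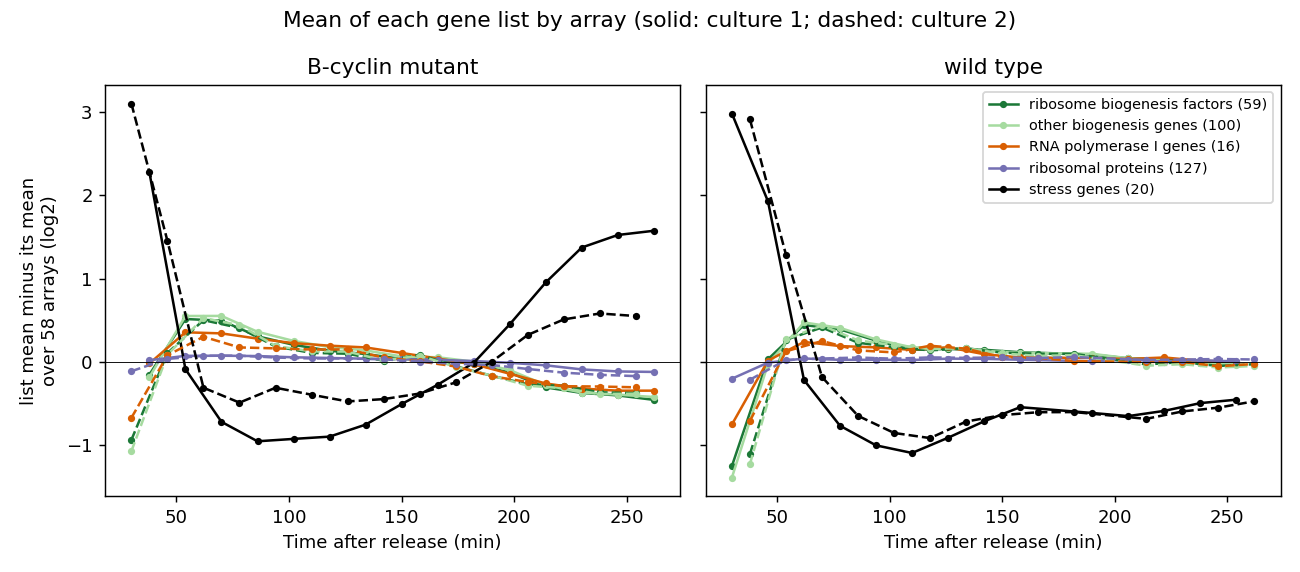
Mean of each gene list minus its mean over 58 arrays (vertical axis, log2) against time after release in minutes (horizontal axis), for the mutant on the left and the wild type on the right, with culture 1 solid and culture 2 dashed. The biogenesis lists climb and decline together, the ribosomal protein line moves least, and the stress line runs opposite, with a last-window mean of 11.28 in the mutant, against 10.15 in the wild type.

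Of 11 regulators of these genes, 5 fell in the last window, against 13.3% of all genes called lower. SFP1, a zinc-finger activator of biogenesis genes, averaged 10.17 in the mutant, against 11.09 in the wild type (-0.92 ± 0.12, adjusted p = 0.0033). DOT6, a repressor of the same genes, averaged 10.86 in the mutant, against 11.81 in the wild type (-0.95 ± 0.09, adjusted p = 0.0012) and was already lower in the middle window (-0.64, adjusted p = 0.011). An activator and a repressor were thus both lower. ABF1 (-0.65) and RAP1 (-0.54), general factors that bind many such promoters, and SCH9, a kinase of nutrient signalling (-0.31, adjusted p = 0.050, called by a narrow margin), also fell.

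Over the whole course SFP1 (-0.47) and DOT6 (-0.70) were called. In the mutant the later change was called for SFP1, RAP1, ABF1, IFH1 and TOR1. For RAP1 the later change differed between strains (-0.64, adjusted p = 0.027). Recovery was called in the wild type for TOD6, the paralog of DOT6 (0.79), FHL1 (0.43) and RAP1 (0.23), and in the mutant for RAP1 (0.29).

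Environmental stress genes moved against the biogenesis genes. Of 20 such genes 20 were called lower in wild-type recovery and 17 in mutant recovery, against 1498 and 1045 of all genes. In the last window 16 were called higher and 1, YGP1, lower in the mutant, with a median of 1.26. Of all genes, 947 were called higher and 723 lower in that window. The list mean in the last window was 11.58 and 10.98 in mutant cultures 1 and 2, against 10.16 and 10.13 in wild-type cultures 1 and 2. In the first window it was 11.82 and 13.00 in the mutant, against 13.18 and 12.82 in the wild type, so mutant culture 1, where the biogenesis genes were highest, was lowest for stress genes. The signal of the 3′ over the 5′ end of ACT1, a measure of RNA integrity, was 0.42 ± 0.10 (log2) in the mutant, against 0.26 ± 0.03 in the wild type in the last window. The part of these differences in the lower biogenesis signal was not tested.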

How the data were processed

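RNA was measured on 58 Affymetrix yeast arrays of 4 cultures. The authors deposited linear intensities per probe set; affy 1.8.1 is named by the submitters' processing notes, and background correction, summary and scaling are not given in the sources used here. Deposited intensities ranged from 86.1 to 33787, and no depth exists for arrays, so precision is set by their number. From the deposited intensities, log2(intensity + 1) was computed, which can understate changes of dim probe sets. Of 10928 probe sets, 5498 were named to S. cerevisiae genes through the platform table and RefSeq R64, and the brightest was kept for each of 5449 genes. NSA3 has no probe set under that symbol. Background was the 95th percentile of 1746 probe sets of genes outside that annotation.

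Window means per culture were fitted with limma 3.58.1 in R 4.3.3, and p-values were adjusted over all genes with the Benjamini-Hochberg method. Changes within a strain had culture as a block. Waves were fitted over arrays, which treats the arrays of a culture as independent and can make those p-values too small. The strain difference, recovery, later change, change from first to last window and a wave of fixed period were tested on simulated data. The dynamic range, the difference in recovery and the search for the period were not. Replicate numbers did not pair the cultures: deviations correlated at -0.06 for equal numbers and 0.06 for equal sampling grids.

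The members, lists and named genes were chosen with earlier results of these data known. The rule names 9 well-known members, members called over the course, the extremes of each window, of recovery, later change and likeness to the mean, the 2 leading genes per other list, called regulators and CLB1 to CLB6. Further members were named after their values were seen. No sequence was used and no coordinate is printed. RefSeq R64 served for names and for which genes are neighbours.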

Additional observations from a re-analysis of the deposited data

Results flagged for a closer look

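In 17 genes the difference between mutant and wild type changed from the first window to the last, by limma's test of that change over culture means (adjusted p under 0.05, n = 2 cultures per strain). All 17 moved toward lower values in the mutant. Among small-subunit factors the changes were -1.22 for UTP4, -1.15 for UTP20, -1.06 for RRP5, -0.94 for UTP21, -0.87 for RRP9, -0.85 for UTP13, -0.84 for NOP9, -0.81 for RRP7, -0.68 for NOP6 and -0.66 for UTP22. Among large-subunit factors they were -1.33 for NOG2, -0.93 for NOP4, -0.90 for NOP15, -0.77 for NOP53 and -0.52 for RRP14. NOP56 of the snoRNPs changed by -0.81 and RRP45 of the exosome by -0.78. Of these genes UTP4, RRP5, UTP13, NOP9, NOP6, UTP22, NOP53 and RRP14 were not called in either window taken alone, and the first-window differences rest in part on mutant culture 1. With mutant culture 1 left out, 9 genes were called, and 0 with either wild-type culture left out. No group held enough samples for a test of outlying cultures.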

How the results depend on the processing

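Of 274 alternatives for counts and medians, 237 left the value within 1.5 times or within the spread, and 37 moved it. A count of 0 that stayed 0 was scored as unmoved, and many counts were 0 to begin with, so the 237 overstate stability. Single-member calls (120 calls, 1459 alternatives) were kept in 1086, lost in 373 and reversed in 0. Several alternatives leave a member's difference itself unchanged, so they could not reverse it. These are the mean of probe sets (each member has 1), the background filter and the choice of block. With a culture left out in turn, called members ranged from 0 to 6 over the course (2 with all cultures), 0 to 2 lower in the middle window (0), 2 to 33 in the last (17), 0 to 40 in mutant recovery (7), 0 to 56 in wild-type recovery (53), 0 to 5 in the recovery difference (0), 1 to 24 in the mutant later change (24) and 0 to 50 in the change from first to last window (17). Medians ranged from -0.097 to -0.019 over the course and from -0.052 to 0.023 in the middle window. Each such fit has 1 culture in a strain, assumed to vary like the other strain, so these counts and their adjusted p say little about stability. In each comparison the fits with the most called members also had the most calls over all genes. Whether the share of the members matched the share of all genes in these fits was not tested. With the first window to 70 min, mutant recovery was called in 1 member higher and 1 lower, with a median of 0.079. Wild-type recovery was then called in 35, with a median of 0.37. Those fits called 1802 and 2718 of all genes in either direction. Alternatives added after seeing the data gave 40 in mutant recovery with the first array only, and, with the last window to 222 min, 7 lower members, a median of -0.19 and 7 in the mutant later change. Arrays centred on the median gave 15 in the mutant later change and no culture block 14, with 1667 and 1206 of all genes called in either direction. The time grid block called 1 member over the course, NOP19, and neither NOG2 nor RRP45, and arrays from 62 min gave a median of -0.14. For the first window the time grid block called 0 members, with 26 at an unadjusted p under 0.05 (limma). Dynamic range without trend removal gave 29 with a median of 1.04, and over all arrays 0 with a median of -0.50 (57 of 59 negative). Periodicity over all arrays gave 7 in the wild type, a count with no share over all genes beside it. The replicate block, on numbers with little sign of pairing, gave 21 lower members in the last window, 16 of them among the 17. It called 1870 of all genes there in either direction. Over the course the replicate block gave 2, NOG2 (limma, adjusted p = 0.025) and NOP19 (0.032), while RRP45 lost its call. Promoter motifs were not run, since no promoter sequences were used here.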
